A study of Mus musculus with 12 samples.

Results

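Solute carrier (SLC) transporters were read as 1 gene group in RAW264.7 cells, a mouse macrophage line, before and after an inflammatory stimulus and with or without a CRISPR deletion. Members were the protein-coding genes of the deposited count table whose mouse symbol starts with Slc and a digit. Another 10 SLC genes of glucose, lactate, arginine, cystine, iron and zinc handling (Slc2a1, Slc16a1, Slc16a3, Slc7a1, Slc7a2, Slc7a11, Slc40a1, Slc11a1, Slc11a2 and Slc39a14) were left out by the rule. The group held 176 of the 12483 genes in the table, in 38 SLC families, and 175 of them passed the filter on low counts. Slc52a3, a riboflavin carrier, was the member that did not pass, with group means of 0.165 to 0.769 CPM, which are counts put on a common library size. The annotation of the same genome build holds 361 genes that meet the rule, and those outside the table were not analysed here. The name does not make every member a carrier: Slc4a1ap, Slc7a6os and Slc9a3r1 are named after a neighbouring or partner gene. Exons of Slc25a35, Slc39a7 and Slc33a1 overlapped another gene over at least 30% of their length, so their counts are uncertain.

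The cells came from clones grown out of single cells after transfection with constructs cutting on either side of an element named NRE1, a name the labels do not expand. Clones 1, 2 and 3 are labelled wild type (WT) and clones 1A, 1B and 2 are labelled as carrying the deletion (KO). Each clone gave 1 library from medium alone and 1 after 6 h with lipopolysaccharide (LPS) at 10 ng/mL plus interferon gamma (IFN-gamma) at 50 ng/mL, so each of the 4 groups held 3 libraries. Every library is thus from this transformed line under clonal selection. P-values of the main fit rest on the spread between libraries of a group, which come from different clones. That fit takes all 12 libraries as independent, although 2 come from each clone. It thus ignores the pairing of medium and stimulated libraries, and it counts more independent libraries than there are clones. A fit with clone as a block, for the responses alone, is the alternative. The labels do not say whether 1A and 1B come from the same founder cell, and calls of the members described that were lost with these clones summed are therefore given. No gene in the table is named NRE1, so the deletion could not be checked on a target transcript.

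Solute carriers are membrane proteins that move nutrients, ions, metals and metabolites, most by facilitated diffusion or by coupling to the gradient of another ion. Some sit in the plasma membrane and others in the lysosome, the Golgi or the inner mitochondrial membrane, as most of the SLC25 family does. Activated macrophages are known to change their uptake of glucose, amino acids and metals, and transport of zinc and copper is part of how they starve or poison ingested microbes.

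Library totals ran from 10624591 to 14388590 counts. All 10 macrophage markers looked for were in the table. Their summed levels were 8465 to 19136 CPM in WT medium and 4730 to 14024 CPM in KO medium. Lyz2 was a large part of these sums, at 1790 to 14803 CPM. Among these 10, only Itgam differed between KO and WT in medium at an edgeR adjusted p below 0.05 (log2 difference -1.75). After the stimulus only Mrc1 did (-3.01). Adgre1 was lower in KO without overlap and just missed a call, at -2.82 in medium and -2.30 after the stimulus (edgeR adjusted p 0.0515 and 0.0508). Fcgr1 was also lower without overlap, at -1.86 and -1.75 (0.217 and 0.140). Csf1r and Cd68 were lower without overlap after the stimulus, at -0.87 and -0.84 (0.0612 and 0.0620). Only Ptprc and Cd14 had positive differences, in both conditions and without a call. No B cell, fibroblast or epithelial marker was in the table. For T or NK cells Lck was in it, for neutrophils S100a8 and for mast cells Kit. Lck and Kit rose with the stimulus in both genotypes, to at most 25.4 and 3.38 CPM. Of 5 osteoclast markers 4 were in the table, and their summed level ran from 83.0 to 279.7 CPM in stimulated WT libraries and from 11.1 to 36.9 CPM in stimulated KO libraries. Most of that sum was Dcstamp, at 85.4, 243 and 62.9 CPM in stimulated WT and 7.88, 10.9 and 24.1 CPM in stimulated KO clones. Of the 4 only Dcstamp was called between stimulated genotypes (edgeR adjusted p 0.0177). Acp5, Ctsk and Ocstamp were lower in KO too, without a call (0.183, 0.350 and 0.0871). The markers' part in the differences between KO and WT given further on was not tested, and in bulk RNA fewer cells of a type and less RNA per cell cannot be told apart. As a check of the stimulus, Nos2, Tnf and Cxcl10 rose in both genotypes, Nos2 by 10.70 and 11.12 on the log2 scale.

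As a group the SLC members took a small and narrow share of each library. They made up 1.15 ± 0.052% of all counts in WT medium and 1.16 ± 0.015% in KO medium (SD, n = 3). After the stimulus the shares were 0.994 ± 0.079% in WT and 0.967 ± 0.0077% in KO, and every stimulated library was below every medium library. With TMM scaling the order turned: the members summed to 9808 to 10948 CPM in medium libraries and to 10528 to 12568 CPM in stimulated ones. Per kb of exon, which allows genes to be compared, the median member stood at 6.53 CPM over the 12 libraries. At or above 10 CPM per kb were 65 members, and 21 were under 1.

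Of the 12 most abundant members per kb, 5 were SLC25 carriers, 3 serve amino acid uptake (Slc1a5, Slc3a2 and Slc38a2), 2 carry zinc (Slc39a7 and Slc39a1), and the others were Slc2a6 and Slc35b1. Slc25a5 and Slc25a4, which exchange ADP for ATP across the inner mitochondrial membrane, led with means of 202 and 136 CPM per kb over the 12 libraries. The next in order were Slc39a7, which releases zinc from the endoplasmic reticulum, at 88.7, the glutamine carrier Slc1a5 at 75.1 and the mitochondrial phosphate carrier Slc25a3 at 67.2 CPM per kb. Slc3a2, the heavy chain that brings several amino acid carriers to the cell surface, followed at 63.6. Among the 12 most abundant each gene and the next in order overlapped in their ranges over the libraries. Of these 12 Slc2a6 had the widest span of group means relative to its level, from 10.1 ± 5.91 CPM per kb in WT medium to 77.0 ± 16.01 in stimulated KO cells (SD, n = 3). Slc25a4 varied little, between 129.8 ± 3.86 in KO medium and 145 ± 14.8 in stimulated WT cells.

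**Figure D1:**
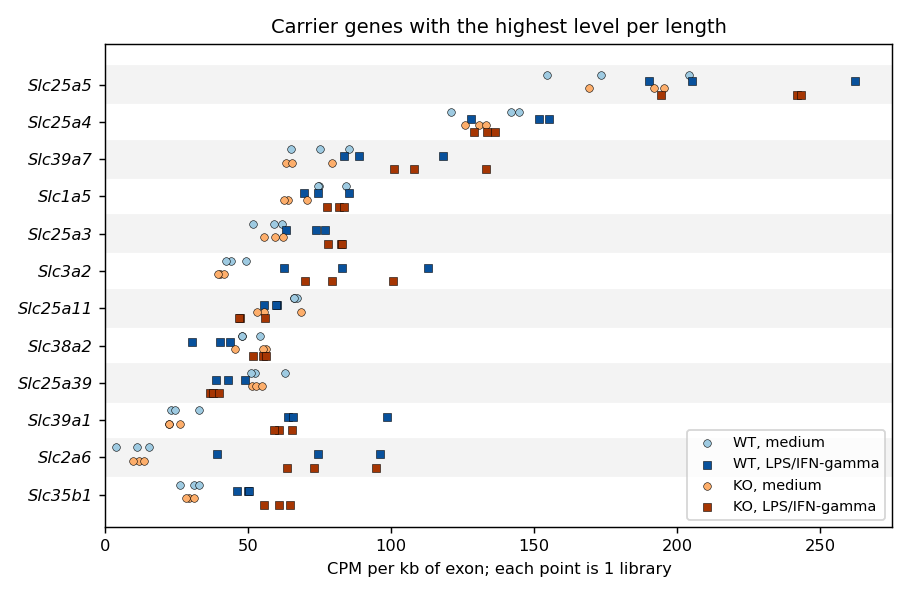
Level of the 12 most abundant SLC members in CPM per kb of exon (linear x axis), 1 point per library and 1 colour per group. Slc25a5 and Slc25a4 are the highest, and for Slc2a6, Slc39a1, Slc3a2 and Slc35b1 all stimulated points lie to the right of all medium points.

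LPS with IFN-gamma moved about as many SLC genes up as down. In WT clones 89 of 175 members changed (edgeR quasi-likelihood test, Benjamini-Hochberg adjusted p below 0.05), 40 higher and 49 lower, against 47.4% of all genes tested (23.8% higher and 23.6% lower). In KO clones 109 changed, 49 higher and 60 lower, against 54.3% of all genes (26.7% and 27.6%). The members' share is near the background in WT and somewhat above it in KO, and no test of that gap was made. Values of the 2 conditions did not overlap for 92 members in WT, with 50.5% of all genes, and for 134 in KO, with 70.0%.

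The direction of small changes depended on the scaling. Scaling by library totals alone, in place of TMM factors, moved the median log2 change of all genes from -0.010 to -0.37 in WT and from -0.012 to -0.39 in KO. The members then split into 27 higher and 84 lower in WT, and into 27 higher and 81 lower in KO. No call on a fall was lost, while 13 of the 40 rises in WT and 22 of the 49 in KO were. The sign turned for Slc25a3 in WT and for Slc1a5, Slc25a17 and Slc25a38 in KO. All of these calls were also lost with KO 1A and 1B summed (edgeR adjusted p 0.066, 0.170, 0.160 and 0.113). Each class below is given with both splits. Beside the TMM counts of classes, families and other gene sets stand the shares of all genes. These were 23.8% higher and 23.6% lower in WT, and 26.7% and 27.6% in KO. No class, family or set was tested against these shares. Classes were assigned by SLC family number, so a class can hold members whose substrate differs from its name. Every other called member kept its sign under both scalings, while the small uncalled changes of Slc25a4 and Slc25a5 in both genotypes and of Slc7a5 in WT turned negative with library totals.

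The WT and KO responses named largely the same members. Higher in both were 38 members and lower in both were 46, which is 94.4% of the WT calls and 77.1% of the KO calls. All genes gave 21.5% higher in both and 21.1% lower in both, and for them the shares of calls were 90.0% and 78.5%. No member was called in opposite directions, 5 were called in WT alone, 25 in KO alone and 61 in neither. A call in 1 genotype alone is not a difference between genotypes, which has its own test further on.

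**Figure D2:**
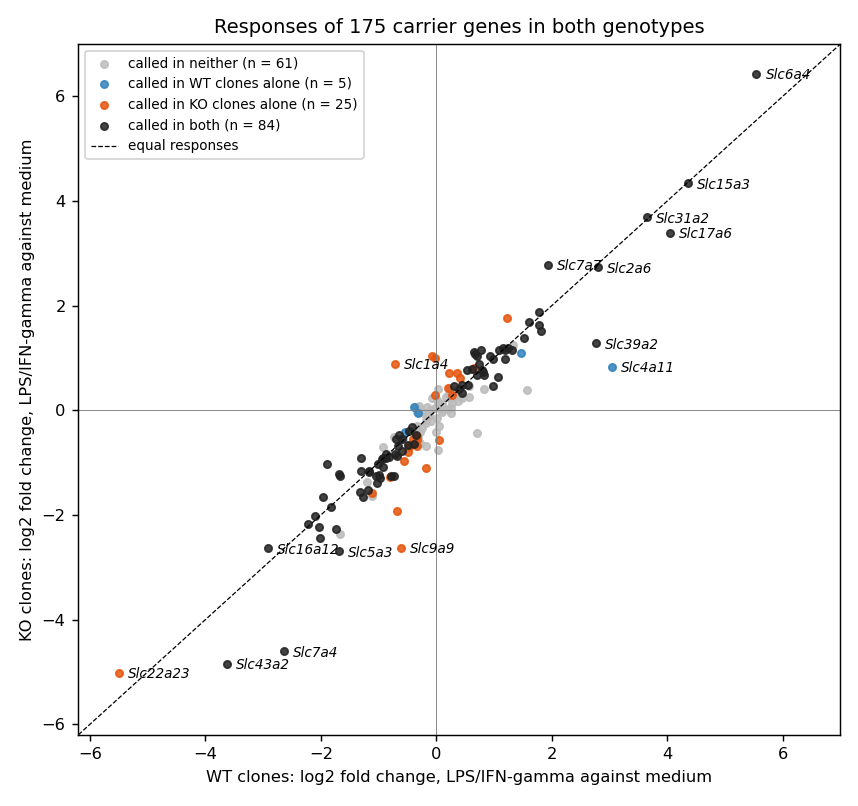
Log2 change after LPS with IFN-gamma in WT clones (x axis) against that in KO clones (y axis), 1 point per SLC member tested, coloured by whether it was called in both, in 1 or in neither response. Most points lie near the dashed line of equal responses, with Slc6a4, Slc15a3 and Slc31a2 at the top right and Slc43a2 and Slc7a4 at the bottom left. Slc22a23 is also drawn at the bottom left, but its WT position rests on counts in 1 medium library alone. Its WT change was not called.

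**Figure D3:**
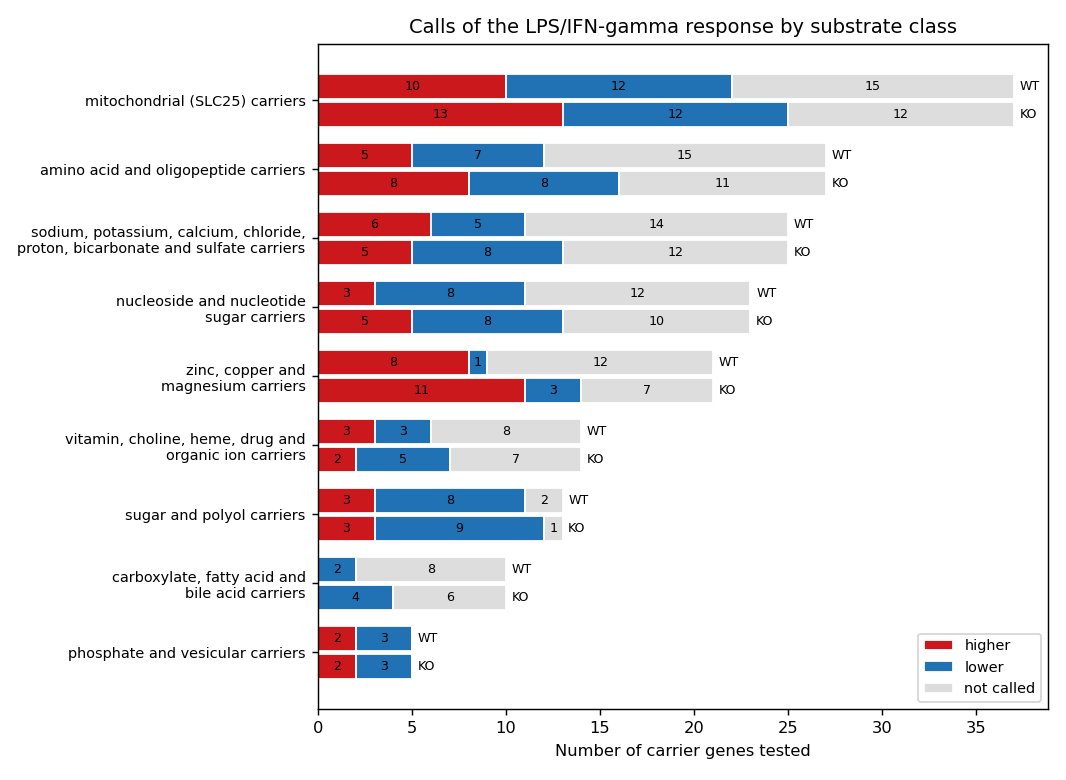
Stacked bars of the number of members tested in each class of carriers, split into higher (red), lower (blue) and not called (grey) after LPS with IFN-gamma, 1 bar for WT and 1 for KO clones. Among called zinc, copper and magnesium carriers most were higher, and among called sugar and polyol carriers most were lower.

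Among 27 amino acid and oligopeptide carriers 5 rose and 7 fell in WT, and 8 rose and 8 fell in KO. The risers in both genotypes include Slc7a6os, which is not a carrier and rose by 0.75 and 0.88. By family the class also holds the serotonin carrier Slc6a4 and the creatine importer Slc6a8. The aromatic amino acid carrier Slc16a10 is counted with the carboxylate carriers. Library totals gave 5 and 16 in WT, and 5 and 12 in KO. The class held the largest rise and the largest fall among members that reached 5 CPM in a group. Slc6a4 (chr11:76998603-77032340), the serotonin reuptake carrier of neurons and platelets, was close to silent in medium. It stood at 0.217, 0.235 and 0.622 CPM in WT clones 1, 2 and 3 in medium and at 11.7, 21.6 and 19.9 CPM after the stimulus. KO clones 1A, 1B and 2 went from 0.0750, 0.270 and 0.493 to 11.97, 13.2 and 48.5 CPM. All 6 stimulated libraries lay above all 6 medium libraries, and KO clone 2 reached the highest level. The log2 change was 5.54 (SE 0.73) in WT and 6.43 (SE 0.76) in KO, with edgeR adjusted p of 1.58e-04 and 6.15e-05.

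Slc15a3 (chr19:10839727-10859362), which carries histidine and small peptides out of endosomes and lysosomes, had the next largest rise. WT clones had 6.52, 3.45 and 13.4 CPM in medium and 159, 216 and 109 CPM when stimulated. KO clones had 5.17, 6.96 and 6.41 CPM and 103, 98.5 and 174 CPM. The conditions did not overlap in either genotype, and the log2 changes were 4.35 (SE 0.47) and 4.34 (SE 0.48) (edgeR adjusted p 5.44e-05 and 4.20e-05). Its close relative Slc15a4, also a lysosomal carrier, was not called in either genotype, with log2 changes of -0.15 and -0.13.

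Slc3a2 rose, and so did its light chain Slc7a7. Slc3a2 had a mean of 159 ± 12.7 CPM in WT medium and 303 ± 89.4 CPM after the stimulus, with log2 changes of 0.93 (SE 0.19) in WT and 1.04 (SE 0.20) in KO (edgeR adjusted p 0.00260 and 0.00103). Slc7a7, a light chain that exports cationic amino acids, stood at 4.56, 4.39 and 2.05 CPM in WT medium and 16.6, 20.5 and 4.75 CPM after the stimulus. In KO clones it went from 2.17, 1.76 and 4.03 to 13.2, 11.1 and 30.2 CPM. Clone WT 3 stayed lowest among stimulated libraries, barely above WT medium, and the WT call was lost without WT 1 or WT 2 (adjusted p 0.071 and 0.102). Slc7a5, the light chain for large neutral amino acids, was not called, with means of 99.0 CPM in WT medium and 100.5 CPM in stimulated WT cells and a log2 change of 0.40 in KO (adjusted p 0.0952, which became 0.00248 when clones were blocked). Slc7a6, a further light chain, fell by 0.42 on the log2 scale in WT and by 0.32 in KO, the latter call lost without KO 1A or KO 2 (adjusted p 0.117 and 0.092).

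Slc43a2 (chr11:75531694-75577575), a carrier of branched-chain and other large neutral amino acids, had that largest fall. It stood at 199, 226 and 105 CPM in WT medium and at 20.6, 18.8 and 3.42 CPM after the stimulus. The KO clones dropped from 97.9, 100.1 and 178 to 3.07, 3.23 and 6.89 CPM. The lowest medium library was several times the highest stimulated library, and KO libraries were at the bottom after the stimulus, next to WT 3. The log2 change was -3.63 (SE 0.60) in WT and -4.84 (SE 0.66) in KO (edgeR adjusted p 7.18e-04 and 1.64e-04). Slc43a3, its paralog, fell too, by 1.28 and 1.67 on the log2 scale. Slc7a4, an SLC7 member with no established substrate, fell by 2.65 in WT and fell by 4.601 in KO (adjusted p 0.0173 and 0.00232), from means of 9.10 and 6.93 CPM. Clone WT 1 had more of it than the other WT clones in both conditions, and without WT 2 the adjusted p in WT was 0.051.

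The 21 carriers of zinc, copper and magnesium leaned upward: 8 rose and 1 fell in WT, and 11 rose and 3 fell in KO. Their median log2 change was 0.37 in WT and 0.43 in KO, beside -0.010 and -0.012 over all genes. With library totals the split was 5 higher and 4 lower in WT, and 5 and 5 in KO, so the lean rests on the scaling for the smaller changes. Slc31a2 (chr4:62262562-62298411), a copper carrier of endosomes and lysosomes, stood at 7.75, 12.7 and 8.52 CPM in WT medium and 88.2, 169 and 105 CPM after the stimulus. KO clones went from 5.77, 5.41 and 9.70 to 76.3, 74.6 and 118 CPM. No stimulated library came near the medium range, and the log2 changes were 3.65 (SE 0.34) and 3.69 (SE 0.35) (edgeR adjusted p 1.86e-05 and 1.32e-05). The main cellular copper importer Slc31a1 lies 62316 bases further along the same chromosome and strand, and it rose by 1.197 in WT and 1.16 in KO.

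The zinc carriers that rose bring zinc into the cytosol or load it into the secretory pathway. Slc39a1, a plasma membrane zinc importer, had 54.0, 77.1 and 57.9 CPM in WT medium and 151, 233 and 155 CPM after the stimulus. Its log2 change was 1.51 (SE 0.18) in WT and 1.39 (SE 0.18) in KO (edgeR adjusted p 7.95e-05 and 1.01e-04). Slc30a7, which loads zinc into the Golgi, varied little between clones, with 93.4, 101 and 89.5 CPM in WT medium and 189, 200.3 and 214 CPM after the stimulus. It rose by 1.08 (SE 0.093) and 1.15 (SE 0.093) (edgeR adjusted p 8.58e-06 and 4.39e-06). In the SLC30 family of zinc exporters 3 of 6 members rose in each genotype, and Slc30a5 fell by 0.32 in WT and was uncalled in KO (its WT call was lost without WT 3, at 0.073, or KO 1A, at 0.051). In the SLC39 importers 3 of 10 rose in WT, and 5 rose and 2 fell in KO. Slc39a2, a little-expressed zinc importer, went from 0.290, 0.392 and 0.249 CPM in WT medium to 2.28, 2.64 and 1.52 CPM and from 0.375, 0.406 and 0.164 to 0.819, 0.684 and 0.875 CPM in KO. It rose in both, by 2.76 in WT and 1.28 in KO, and the KO call was lost with library totals (log2 change 0.91), without KO 1A (adjusted p 0.080), without KO 2 (0.167) and with 1A and 1B summed (0.054).

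Genes of metal handling outside the group moved in mixed directions. Of 11 measured, 4 rose and 1 fell in each genotype, and library totals gave 2 and 2 in WT and 3 and 1 in KO. Mt2, a zinc- and copper-binding metallothionein, rose by 2.14 in WT and 2.06 in KO, and Mtf1, the zinc-sensing transcription factor, by 0.90 and 1.14. Steap3, an endosomal metal reductase, fell by 2.87 and 3.20.

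Of 13 sugar and polyol carriers 11 were called in WT and 12 in KO, most of them lower. They include, by family, the multivitamin carrier Slc5a6, which fell in both genotypes. In WT 3 rose and 8 fell, in KO 3 rose and 9 fell, and library totals gave 3 and 9 in both. The median log2 change was -0.88 in WT and -0.91 in KO. Slc2a6 (chr2:27021363-27027998), a lysosomal hexose carrier, was the high exception at 11.8, 49.3 and 35.9 CPM in WT medium and 126, 309 and 239 CPM after the stimulus. KO clones went from 37.4, 30.6 and 43.8 to 234, 204 and 304 CPM. Clone WT 1 was lowest in both conditions, and the conditions did not overlap. The log2 changes were 2.80 (SE 0.48) and 2.73 (SE 0.48) (edgeR adjusted p 9.08e-04 and 8.00e-04).

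The 3 other SLC2 members fell in both genotypes. Slc2a3, a high-affinity glucose importer, had 54.3, 70.4 and 62.3 CPM in WT medium and 31.0, 33.9 and 25.4 CPM after the stimulus, a log2 change of -1.05 (SE 0.16) (edgeR adjusted p 3.81e-04). Slc2a8, an intracellular hexose carrier, fell by 2.01 in WT and 2.43 in KO, from means of 6.04 and 7.44 CPM to 1.49 and 1.36 CPM. Slc2a9, which carries urate and hexoses, fell by 0.60 and 0.78, with calls that were lost without WT 2 or WT 3 in WT (adjusted p 0.097 and 0.152) and without KO 1A or 1B in either genotype (0.060 to 0.117), and with 1A and 1B summed (0.066 and 0.075). Slc2a1, the main glucose importer and left out of the group, rose by 2.30 in WT and 2.56 in KO.

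The sugar phosphate exchangers of the SLC37 family divided evenly. Slc37a1 rose by 1.16 and 1.199 and Slc37a3 by 0.99 and 0.98 in WT and KO. Slc37a4, which takes glucose-6-phosphate into the endoplasmic reticulum, fell by 1.19 and 1.53. Slc37a2, a macrophage member of the family, went from 127, 209 and 49.1 to 47.6, 28.8 and 13.2 CPM in WT and from 27.6, 31.0 and 114 to 9.82, 13.6 and 19.5 CPM in KO. Each clone had less of it after the stimulus than before, clones of 1 genotype differed several times over, and the adjusted p was 0.0294 in WT and 0.0341 in KO. The WT call was lost without WT 2 (adjusted p 0.189), and the KO call without any of the KO clones (0.079 to 0.169) or with 1A and 1B summed (0.077). Slc5a3, the sodium-coupled myo-inositol importer, fell from 141, 81.4 and 157 to 42.2, 30.3 and 44.9 CPM in WT and from 591, 602 and 303 to 81.3, 89.3 and 60.8 CPM in KO. Its log2 change was -1.69 (SE 0.31) in WT and -2.69 (SE 0.32) in KO (edgeR adjusted p 0.00132 and 6.05e-05).

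**Figure D4:**
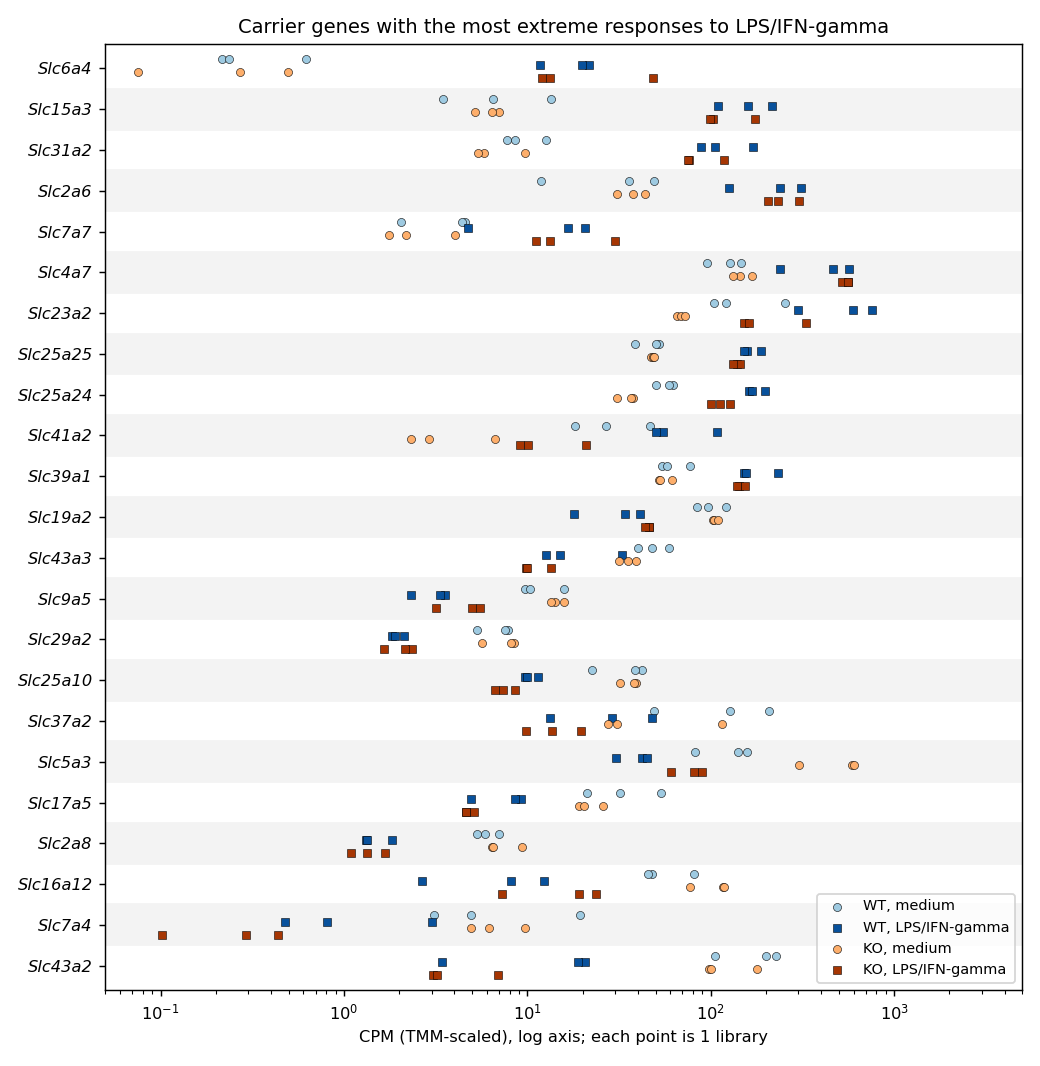
Level in CPM (log axis) of the members named for the largest rises and falls (called, at least 5 CPM in a group, no overlap), 1 point per library, in medium and after LPS with IFN-gamma for WT and KO clones. Within each genotype the medium and stimulated points of each gene do not overlap, and the gaps of Slc6a4 and Slc15a3 upward and of Slc43a2 downward are wide.

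The SLC25 family of mitochondrial carriers held 37 members, of which 10 rose and 12 fell in WT, and 13 rose and 12 fell in KO. Library totals gave 4 and 19 in WT, and 7 and 17 in KO. Of 3 calcium-regulated carriers that exchange ATP-magnesium for phosphate, 2 rose and 1 fell. Slc25a25 stood at 52.2, 38.8 and 50.4 CPM in WT medium and 157, 152 and 188 CPM after the stimulus, a log2 change of 1.81 (SE 0.12) (edgeR adjusted p 1.89e-06). Slc25a24 went from 50.3, 62.5 and 59.2 to 161, 198 and 167 CPM in WT and from 37.5, 36.6 and 30.8 to 112, 101 and 127 CPM in KO. Its rise was 1.61 (SE 0.13) and 1.69 (SE 0.13) (edgeR adjusted p 6.19e-06 and 3.65e-06). The third, Slc25a23, fell by 1.32 and 1.56. Slc25a22, a glutamate carrier, rose by 1.23 and 1.197, and Slc25a37, the mitochondrial iron importer, by 1.18 and 0.98. The Slc25a37 calls were lost without WT 2 in WT (adjusted p 0.052) and without KO 1A, without KO 2 or with library totals in KO.

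The dicarboxylate carrier Slc25a10, which exchanges malate and succinate for phosphate, fell the most among SLC25 members above 5 CPM. It went from 42.4, 22.5 and 38.8 to 11.4, 9.73 and 9.97 CPM in WT and from 39.1, 38.3 and 31.8 to 7.37, 8.60 and 6.67 CPM in KO, and no clone overlapped the other condition. The log2 change was -1.74 (SE 0.22) and -2.27 (SE 0.22) (edgeR adjusted p 1.03e-04 and 1.59e-05). Slc25a39, which brings glutathione into mitochondria, fell by 0.35 and 0.48, the WT call lost without WT 1, KO 1A or KO 1B (adjusted p 0.079, 0.051 and 0.051). The ADP/ATP carrier Slc25a4 was not called in either genotype (0.094 and 0.033). Slc25a5 had 0.31 and 0.29 with adjusted p of 0.118 and 0.130, and passed with clone as a block (0.00606 and 0.00761).

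Carriers of bicarbonate, chloride and protons were mixed: of 25 in this class 6 rose and 5 fell in WT, and 5 rose and 8 fell in KO. Library totals gave 5 and 10 in WT, and 3 and 12 in KO. Slc4a7, which brings sodium and bicarbonate into the cell, went from 95.6, 146 and 127 to 239, 568 and 464 CPM in WT and from 145, 133 and 167 to 562, 521 and 558 CPM in KO. The lowest stimulated library, WT 1, was above all medium libraries, and the rise was 1.79 (SE 0.27) and 1.89 (SE 0.27) (edgeR adjusted p 3.72e-04 and 2.00e-04). The potassium-chloride cotransporters Slc12a4 and Slc12a7 rose by 0.77 and 0.82 in WT, while Slc12a2, the cotransporter that brings sodium, potassium and chloride in, fell by 0.67. None of 9 SLC9 members, sodium-proton exchangers with the adaptor Slc9a3r1 among them, rose in either genotype. Slc9a5 fell by 1.96 in WT and 1.66 in KO, and Slc9a9 fell by 2.62 in KO and was uncalled in WT. Slc4a11, a borate and proton carrier family member, rose in WT from 0.724, 0 and 0.373 to 3.01, 3.24 and 3.13 CPM and was uncalled in KO, at 0.675, 1.01 and 0.164 and 0.921, 1.47 and 0.985 CPM.

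All 5 phosphate and vesicular carriers were called in both genotypes, 2 higher and 3 lower. Library totals gave the same split in WT and 1 and 3 in KO. Slc20a1, a plasma membrane phosphate importer, rose by 1.06 (SE 0.15) in WT and 0.64 (SE 0.15) in KO, and Slc20a2, its paralog, fell by 0.93 and 1.08. The KO rise of Slc20a1 was lost with library totals, at a log2 change of 0.26. Slc17a5, which exports sialic acid from lysosomes, fell from 32.1, 53.3 and 21.2 to 9.22, 8.52 and 4.94 CPM in WT, a log2 change of -2.23 (SE 0.33) (edgeR adjusted p 3.01e-04). Slc17a6, the vesicular glutamate carrier of neurons, rose from 0.0724, 0.313 and 0.249 to 2.83, 1.52 and 6.55 CPM in WT and from 0.375, 0.203 and 0.164 to 2.25, 2.93 and 2.95 CPM in KO, and so stayed a rare transcript.

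Nucleoside and nucleotide sugar carriers had more called falls than rises. Of all genes 23.8% were higher and 23.6% lower in WT, and 26.7% and 27.6% in KO. The gap to these shares was not tested. Of 23 members 3 rose and 8 fell in WT, and 5 rose and 8 fell in KO, and library totals gave 1 and 12 in both. The equilibrative nucleoside carriers Slc29a1 and Slc29a2 fell by 0.99 and 1.82 in WT and by 1.24 and 1.85 in KO. Slc29a1 had 106, 96.2 and 110.4 CPM in WT medium and 69.1, 44.1 and 44.1 CPM after the stimulus, without overlap. Slc35b1, which supplies the endoplasmic reticulum with ATP, rose by 0.70 (SE 0.10) and 1.03 (SE 0.10) (edgeR adjusted p 2.80e-04 and 1.72e-05). Slc35b2, which supplies the Golgi with the sulfate donor, fell by 0.98 and 1.29. Slc35g1 fell by 0.73 and 1.25.

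Of 10 carboxylate, fatty acid and bile acid carriers none rose, while 2 fell in WT and 4 in KO. Library totals gave 6 falls in WT and 5 in KO. Slc16a12, a monocarboxylate-family carrier of creatine, went from 81.1, 47.9 and 45.4 to 12.3, 8.11 and 2.66 CPM in WT and from 116, 119 and 77.4 to 19.1, 23.8 and 7.22 CPM in KO. All stimulated libraries were below all medium libraries, with log2 changes of -2.91 (SE 0.54) and -2.63 (SE 0.52) (edgeR adjusted p 0.00149 and 0.00176). Slc10a7 fell by 0.50 in KO, a call lost without KO 1A, without KO 1B and with both summed (adjusted p 0.077, 0.175 and 0.108). In WT its adjusted p was 0.107, or 0.0264 when clones were blocked.

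Vitamin and choline carriers, 14 tested of 15, gave 3 rises and 3 falls in WT, and 2 rises and 5 falls in KO. Library totals gave 2 and 5 in WT, and 2 and 6 in KO. Slc23a2, the sodium-coupled vitamin C importer, rose from 121, 254 and 104 to 754, 594 and 299.8 CPM in WT and from 65.6, 68.4 and 72.4 to 151, 161 and 329 CPM in KO. Its log2 change was 1.78 (SE 0.44) and 1.64 (SE 0.44), and the calls were lost without WT 1 in WT (adjusted p 0.070) and without KO 2 in KO (0.079). Slc33a1, which takes acetyl-CoA into the endoplasmic reticulum, rose by 1.31 and 1.16. Slc19a2, a thiamine importer, fell from 120.4, 97.0 and 84.0 to 41.2, 34.0 and 18.04 CPM in WT, a log2 change of -1.69 (SE 0.24) (edgeR adjusted p 2.57e-04), and by 1.22 in KO. Slc22a23, a family member with no established substrate, fell in KO from 2.62, 2.70 and 9.04 to 0.205, 0 and 0.219 CPM. In WT it was at 0 CPM in all libraries but WT 3 in medium, at 1.31 CPM, and was not called. The KO call was lost without any of the KO clones (adjusted p 0.074 to 0.098) and with 1A and 1B summed (0.063).

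Carriers that bear other names were counted apart. Of 33 measured, 3 rose and 7 fell in WT, and 5 rose and 8 fell in KO, with 2 and 16 in WT and 1 and 20 in KO by library totals. Ctns, which exports cystine from lysosomes, fell by 1.47 and 1.63, Slco4a1 by 1.90 and 1.73, and Cln3, a lysosomal membrane protein, rose by 1.32 and 1.43. Of 10 partners and trafficking regulators of carriers 5 rose and 1 fell in WT, and 4 rose and 1 fell in KO. Library totals gave 1 and 4 in WT, and 1 and 3 in KO. Bsg, the chaperone of monocarboxylate carriers, rose by 0.39 and 0.55 under TMM scaling. Of the 9 SLC genes in the table that the rule left out, 4 rose in WT and 5 in KO, and none fell, while library totals gave 1 fall in WT and 2 in KO. Slc7a11, the cystine importer, rose by 3.98 and 3.58, and Slc11a2, a divalent metal importer, by 2.37 and 2.53.

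The sequence just before the start sites that RefSeq lists was read for motifs. RefSeq (GRCm38.p6) gave 189 start windows of 250 bases for 136 of the 176 members. Windows are shown for the 3 risers and the 2 fallers with the largest mean change of both genotypes, among those called in both, at 5 CPM or more in a group, whose window was in the table and met no annotated exon. They are written 5′ to 3′ on the gene's strand, and capitals mark motif matches. Slc6a4 (chr11:76998347-76998596, plus strand) and Slc31a2 (chr4:62286179-62286428, plus strand) each held 1 match to TGCNCNC. That pattern is looser than the metal response element core TGCRCNC, where R is A or G. The Slc31a2 window precedes a start site that lies inside the gene's span given above, and not at its first base. Slc2a6 (chr2:27027999-27028248, minus strand) and Slc2a8 (chr2:32982084-32982333, minus strand) held no motif searched for, and Slc16a12 (chr19:34747329-34747578, minus strand) held an E-box. The windows of Slc43a2, which fell more than Slc16a12 and Slc2a8, are not shown. Its window at chr11:75531444-75531693 held TGCNCNC as TGCCCGC and TGCTCGC, neither of which is TGCRCNC.
Slc6a4: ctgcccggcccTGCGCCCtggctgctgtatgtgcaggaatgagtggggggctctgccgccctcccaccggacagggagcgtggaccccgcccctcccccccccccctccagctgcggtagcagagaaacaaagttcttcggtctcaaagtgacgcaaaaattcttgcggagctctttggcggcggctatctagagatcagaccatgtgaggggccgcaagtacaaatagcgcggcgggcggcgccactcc
Slc31a2: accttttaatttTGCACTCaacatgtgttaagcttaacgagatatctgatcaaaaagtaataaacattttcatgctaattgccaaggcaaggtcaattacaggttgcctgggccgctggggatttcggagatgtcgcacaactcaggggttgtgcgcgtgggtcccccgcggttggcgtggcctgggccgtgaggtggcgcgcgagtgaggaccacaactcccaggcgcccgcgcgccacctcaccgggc
Slc2a6: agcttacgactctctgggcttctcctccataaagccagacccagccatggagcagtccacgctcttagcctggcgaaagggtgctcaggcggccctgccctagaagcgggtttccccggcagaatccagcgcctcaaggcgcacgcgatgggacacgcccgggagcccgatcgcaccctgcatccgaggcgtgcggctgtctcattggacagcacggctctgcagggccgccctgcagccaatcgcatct
Slc16a12: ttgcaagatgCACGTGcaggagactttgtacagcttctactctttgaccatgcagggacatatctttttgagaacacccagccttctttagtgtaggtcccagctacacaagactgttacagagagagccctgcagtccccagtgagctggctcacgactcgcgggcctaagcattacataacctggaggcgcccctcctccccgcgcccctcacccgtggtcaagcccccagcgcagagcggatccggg
Slc2a8: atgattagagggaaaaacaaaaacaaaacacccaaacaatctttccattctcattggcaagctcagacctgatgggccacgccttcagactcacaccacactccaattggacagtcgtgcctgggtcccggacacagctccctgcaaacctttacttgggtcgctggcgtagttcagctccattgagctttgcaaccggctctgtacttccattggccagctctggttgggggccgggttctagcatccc

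Motifs were searched on both strands. The pattern TGCNCNC is so short and loose that 44.4% of all 32851 windows in the table hold it, against 47.1% of the members' windows. Windows with the stricter TGCRCNC were not counted. The E-box CACGTG was in 12.2% of the members' windows and 6.02% of all windows. A kappa-B match was in 6.88% and 5.001%, the interferon-stimulated response element core in 1.59% and 2.98%, and the STAT element TTCNNNGAA in 3.70% and 7.02%. The AP-1 site TGANTCA was in 4.76% and 6.75%, and the amino acid response motif TGATGNAA in 2.12% and 3.45%. Among windows of members higher in both responses 2 of 49 held a kappa-B match, and among those lower in both 6 of 53 did. An E-box was in 6 of 49 and 5 of 53. Windows of the other members tested held an E-box in 12 of 87 and a kappa-B match in 5 of 87. A match is a description of the letters and not a bound site.

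Between genotypes few SLC genes differed. In medium 5 of 175 members were called in KO against WT clones, 1 higher and 4 lower, with 1.21% of all genes called, 0.352% higher and 0.858% lower. Values of the genotypes did not overlap for 40 members, with 20.9% of all genes. The number of calls changed with the clones used: 0 were made without KO 1A, without KO 1B or with 1A and 1B summed, 3 without KO 2, and 10 without WT 3. Having KO 1A and 1B both counted as clones was thus needed for all 5 calls. DESeq2 called 13.

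Slc5a3 (chr16:92058322-92087473), the myo-inositol importer, was the member higher in KO medium. It stood at 591, 602 and 303 CPM in KO 1A, 1B and 2 and at 141, 81.4 and 157 CPM in WT 1, 2 and 3. The lowest KO library, clone 2, was above the highest WT library, and 1A and 1B were close to each other and higher. The log2 difference was 1.98 (SE 0.31) (edgeR adjusted p 0.0139, 5.17e-08 to 0.163 over the alternatives). After the stimulus KO libraries were still above WT ones, at 81.3, 89.3 and 60.8 against 42.2, 30.3 and 44.9 CPM, with a log2 difference of 0.98 (SE 0.31) that was not called (adjusted p 0.103). Of the other genes linked to osmolyte balance, Nfat5, the transcription factor of that response, had a log2 difference of 0.60 in medium, Akr1b3, which makes sorbitol, of 0.26 and Sgk1, an osmotically induced kinase, of -1.93. None of the 3 was called. The betaine carrier Slc6a12 had 242, 244 and 145 CPM in KO medium and 60.5, 30.8 and 175 in WT medium and was not called (adjusted p 0.486), and passed without WT 3 (0.0258).

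Slc41a2 (chr10:83230848-83337882), a magnesium carrier, had the largest difference of the called members. KO clones had 2.32, 2.91 and 6.66 CPM in medium and 10.0, 9.09 and 20.9 CPM after the stimulus. WT clones had 26.7, 46.4 and 18.2 and 54.6, 109 and 50.5 CPM. Every KO library was below every WT library of the same condition, with KO 2 above the other KO clones and WT 3 the lowest WT clone. The log2 difference was -2.95 (SE 0.54) in medium and -2.42 (SE 0.51) after the stimulus (edgeR adjusted p 0.0319 and 0.0283, 4.97e-07 to 0.269 and 4.54e-05 to 0.200 over the alternatives). The stimulus raised it in KO, by 1.76, a call lost without KO 1A or 1B (adjusted p 0.080 and 0.068) and with both summed (0.068). In WT the change was 1.23 with an adjusted p of 0.0596, or 1.94e-05 in the blocked fit. The relatives Slc41a1 and Slc41a3 were not called between genotypes.

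Slc25a24 and Slc12a7 were lower in KO in both conditions, by less and with little spread between clones. Slc25a24, the ATP-magnesium carrier, had 37.5, 36.6 and 30.8 CPM in KO medium and 50.3, 62.5 and 59.2 in WT medium, with log2 differences of -0.71 (SE 0.13) there and -0.63 (SE 0.13) after the stimulus (edgeR adjusted p 0.0282 and 0.0227). Slc12a7, a potassium-chloride cotransporter that lets cells shed volume, had 26.3, 25.0 and 22.9 and 45.9, 39.7 and 35.4 CPM in medium and 39.4, 44.7 and 34.6 and 76.4, 67.1 and 70.4 CPM after the stimulus. The genotypes did not overlap in either condition, with log2 differences of -0.70 (SE 0.13) and -0.85 (SE 0.13) (edgeR adjusted p 0.0255 and 0.00587). In medium the Slc12a7 call was also lost with library totals (adjusted p 0.0625), without WT 1 and without WT 2 (0.074 and 0.055), and both calls in medium were lost without KO 2 (0.081 and 0.085). Slc44a2, a choline carrier-like protein, was the remaining call in medium, at 34.0, 38.4 and 41.9 CPM in KO and 87.2, 204 and 88.3 in WT. Clone WT 2 was far above the other WT clones, and without it the log2 difference went from -1.73 to -1.21 (adjusted p 0.0565). Medium and stimulated libraries come from the same clones, so the calls in the 2 conditions are not independent.

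After the stimulus 8 members were called between genotypes, 2 higher and 6 lower in KO, with 4.64% of all genes called, 1.13% higher and 3.51% lower. Genotypes did not overlap for 43 members, with 24.0% of all genes. No call was made without KO 1A, and 1 (Slc12a7) without KO 1B or with 1A and 1B summed. Without WT 1 or without WT 2 there were 4, without WT 3 there were 24, and DESeq2 called 25. Beside Slc41a2, Slc25a24 and Slc12a7, 3 more were lower in KO. Slc16a10, a carrier of aromatic amino acids and thyroid hormone, had 33.9, 38.8 and 36.4 CPM in KO and 69.3, 50.0 and 70.9 in WT, a log2 difference of -0.80 (SE 0.17) (edgeR adjusted p 0.0258). Slc39a2 had 0.819, 0.684 and 0.875 against 2.28, 2.64 and 1.52 CPM (-1.43 (SE 0.35), adjusted p 0.0441), and Slc25a45, an SLC25 member, 21.8, 22.6 and 24.8 against 37.0, 43.9 and 31.1 CPM (-0.69 (SE 0.17), adjusted p 0.0435). Each of these 3 groups of KO values lay below all WT values.

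Slc27a3 was higher in stimulated KO cells. This fatty acid acyl-CoA synthetase of the carrier family had 4.91, 5.38 and 3.72 against 2.10, 1.93 and 2.47 CPM (1.11 (SE 0.23), adjusted p 0.0227). In medium its difference was 0.92, without a call (adjusted p 0.0767).

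**Figure D5:**
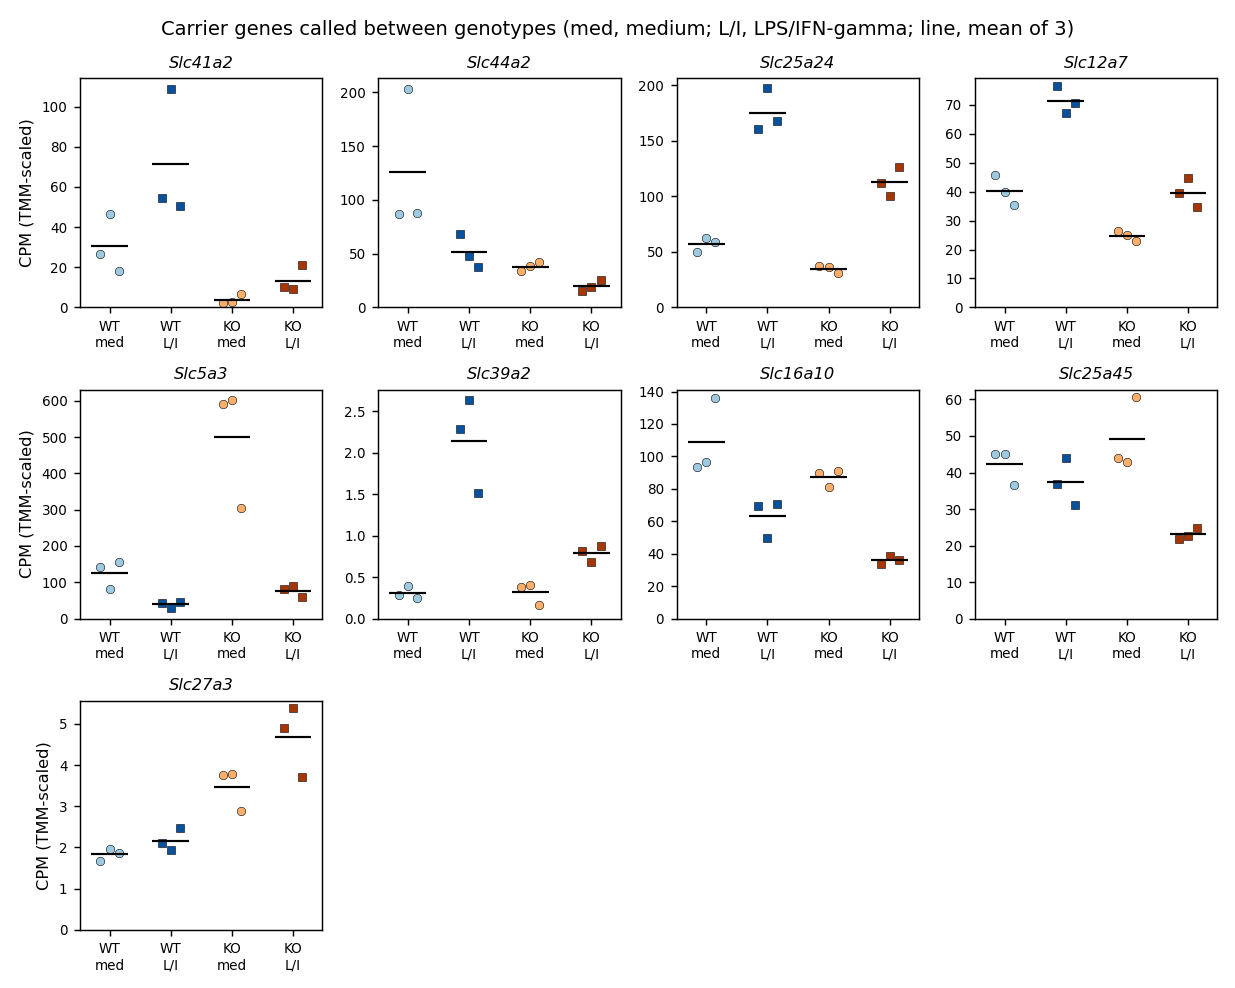
Level in CPM (linear axes from 0) of SLC members called between KO and WT clones in medium or after LPS with IFN-gamma, 1 point per library and a line at the mean of 3. For Slc41a2 all KO points lie below the WT points of the same condition, and for Slc5a3 they lie above them.

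No member's response to the stimulus was called different between KO and WT by edgeR, nor was any other gene. At an unadjusted p below 0.05 there were 13 members of 175 and 611 of all 12231 genes tested. With clone as a block 1 member, Slc25a45, was called, with 0.327% of all genes, and DESeq2 called 0 members. Slc25a45 went from 45.1, 45.0 and 36.7 to 37.0, 43.9 and 31.1 CPM in WT and from 44.0, 43.0 and 60.8 to 21.8, 22.6 and 24.8 CPM in KO. It fell in KO, by 1.09 on the log2 scale. Each WT clone was also lower after the stimulus than before, with overlapping ranges and a log2 change of -0.18 that was not called (adjusted p 0.402). Slc5a3 fell by 1.69 in WT and 2.69 in KO, and the difference had an adjusted p of 0.970 (0.0540 with the block).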

How the data were processed

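RNA-seq gene counts of 12 libraries were used. The authors deposited 1 table of whole-number counts per Ensembl gene; for the aligner, counter and strand setting nothing is given in the sources used. Per the submitters' processing notes the genome build was mm10 (GRCm38), and DESeq2 is listed there with neither version nor role. Names and positions came from GENCODE M21 of that build, which named 12305 of 12483 genes.

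edgeR 4.0.16 in R 4.3.3 was run on the counts of all genes: filterByExpr kept 12231 and TMM set the scaling. A robust quasi-likelihood model of the 4 group means (12 libraries, 8 residual degrees of freedom) gave each contrast, with Benjamini-Hochberg adjusted p below 0.05 called. The SE is the log2 change divided by the root of F. The procedure was tested on simulated data. Those counts were drawn for each library independently, with no effect of clone, so that test does not cover the pairing that the main fit ignores. Levels are CPM on TMM-scaled totals. The common biological coefficient of variation (the root of edgeR's common dispersion) was 23.6%, and 11.7% with clone as a block.

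Libraries of the same clone deviated together (correlation 0.62 to 0.70 for WT, 0.29 to 0.51 for KO, and always highest with the own clone). For KO 1A this was 0.32 against 0.27 with the nearest other KO clone, and for KO 1B 0.29 against 0.18. The check thus hardly tells these clones apart, and their pairing rests on the labels. The other clones pair the conditions as the labels name them. The alternatives tried were DESeq2 1.42.0, the blocked fit, RLE scaling, scaling by totals only, no low-count filter, KO 1A plus 1B as 1 clone, and leaving out each clone in turn.

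Members, gene lists and tests were chosen with earlier results of these data known. Genes were named by rule: in each response the 10 highest and 10 lowest changes among called members of at least 5 CPM without overlap, all members called between genotypes, up to 3 per class with the smallest p, and the 12 most abundant per kb. Others named were chosen after their values were seen. Some members are counted but not reported here by name.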

Additional observations from a re-analysis of the deposited data

Results flagged for a closer look

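The response of Slc25a45 differed between genotypes when clone was entered as a block: the KO response minus the WT response was -0.893 on the log2 scale (SE 0.147), with an edgeR adjusted p of 0.04997, just inside the threshold of 0.05. Without the block the adjusted p was 0.683. All 3 KO clones were lower after the stimulus, at 21.8, 22.6 and 24.8 CPM against 44.0, 43.0 and 60.8 CPM in medium. Each WT clone was lower too: WT clones had 37.0, 43.9 and 31.1 CPM against 45.1, 45.0 and 36.7 CPM. Slc25a45 is a member of the mitochondrial carrier family.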

How the results depend on the processing

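The number of members called in the WT response (89) and in the KO response (109) stayed within 1.5 times of those values under every alternative: 77 to 126 and 75 to 133, with the highest from clone as a replicate block. None of the 66 named changes put through these alternatives turned its sign. KO against WT was less stable. In medium, where 5 were called, leaving out 1 clone gave 0 to 10, summing 1A and 1B gave 0, and DESeq2 gave 13. After the stimulus, where 8 were called, leaving out 1 clone gave 0 to 24, summing gave 1, and DESeq2 gave 25. The difference between responses gave 0 members, and 1 with clone as a replicate block. The paired fit, with 4 residual degrees of freedom, could not be made for KO against WT within a condition, since each clone has 1 genotype. Of 66 named changes the call was lost for 15 with 1A and 1B summed, 16 without KO 1A, 15 without KO 1B, 8 without KO 2, 10 without WT 1, 10 without WT 2 and 1 with library totals. Fewer independent clones enter the fits that leave out or sum clones. Depth limits genes such as Slc22a23, with 21, 0, 185 and 4 counts over 3 libraries in WT medium, stimulated WT, KO medium and stimulated KO, where no fold is given for WT.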

Other observations

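Several SLC members differed widely between clones of the same genotype. Slc8a1, the sodium-calcium exchanger of excitable cells, stood at 0, 43.2 and 0 CPM in WT 1, 2 and 3 in medium and at 0, 22.9 and 0 CPM after the stimulus, so that among WT clones it was detected in WT 2 alone. KO clones had 1.57, 2.43 and 0.740 and 1.23, 1.37 and 0.328 CPM. Slc6a8, the creatine importer, stood at 39.2, 56.1 and 4.35 CPM in WT medium and 1.65, 3.38 and 5.84 CPM in KO medium, with WT 3 within the KO range. Its log2 difference of -3.20 was not called (edgeR adjusted p 0.168), and passed without WT 3 (0.00872). Slc9b2, a sodium-proton exchanger, had 0, 0.338 and 5.18 CPM in KO 1A, 1B and 2 and 10.0, 19.7 and 25.8 CPM in WT medium. It was called without KO 2 (adjusted p 0.0122 in medium and 0.0143 after the stimulus). Slc39a8, a zinc and manganese importer, had 18.9, 44.4 and 1.71 CPM in stimulated WT clones and 0.716, 1.17 and 11.1 CPM in stimulated KO clones, and KO 2 resembled WT 1 while WT 3 resembled KO 1A and 1B.

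Within 100 kb of each other lay 8 pairs of members. In 3 pairs both genes moved the same way in both genotypes: Slc31a2 and Slc31a1 rose, Slc35b2 and Slc29a1 fell (17529 bases apart, on opposite strands), and Slc25a15 and Slc20a2 fell (78191 bases apart). In 1 pair the genes were called in opposite directions: Slc7a6 fell by 0.42 in WT and 0.32 in KO, while Slc7a6os, 2011 bases away on the other strand, rose by 0.75 and 0.88. The 2 betaine and GABA carriers Slc6a13 and Slc6a12, 5343 bases apart, had negative log2 changes in both genotypes (-0.81 and -1.198 in WT, -1.27 and -1.38 in KO), of which Slc6a13 in KO passed, a call lost without KO 1A, KO 1B or KO 2 (adjusted p 0.060, 0.053 and 0.062) and with 1A and 1B summed (0.056). With clone as a block both passed in both genotypes (Slc6a12 adjusted p 1.03e-05 and 3.31e-06).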
